A study of Rattus norvegicus with 415 samples.

Results

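Of the 8 genes described here, Nfe2l2 encodes the transcription factor NRF2. NRF2 is known to drive 4 of them, Hmox1, Nqo1, Gclc and Gclm. The remaining 3, Cat, Sod1 and Sod2, encode enzymes that remove reactive oxygen. The 8 genes were taken by their Ensembl identifiers, in this order ENSRNOG00000001548, ENSRNOG00000014117, ENSRNOG00000012772, ENSRNOG00000006302, ENSRNOG00000013409, ENSRNOG00000008364, ENSRNOG00000002115 and ENSRNOG00000019048. All 8 were among the 18358 genes of the expression table. The tissue was snap-frozen fat of outbred rats, 17 weeks old, which differ from each other in genotype. By the labels the samples share tissue and age, and no treatment is named, so the study has 1 group and no contrast between groups. A sample title is a number followed by a suffix, whose meanings the labels leave unstated. The depot, the sex and the cell types of the tissue are not in the labels, and the tissue label was not checked against marker genes here, because the other identifiers were not paired with gene names.

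NRF2 is held low in unstressed cells by KEAP1, which directs it to degradation. On oxidative or electrophilic stress NRF2 escapes, enters the nucleus and binds antioxidant response elements with small MAF proteins. Because that control acts on the protein, the mRNA of Nfe2l2 need not follow its activity. GCLC and GCLM are the catalytic and the modifier subunit of glutamate-cysteine ligase, which catalyses the rate-limiting step of glutathione synthesis. HMOX1 breaks down haem and NQO1 reduces quinones. Superoxide is turned into hydrogen peroxide by SOD1, mainly in the cytosol, and by SOD2 in mitochondria, and catalase (Cat) degrades hydrogen peroxide in peroxisomes.

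Promoters of 7 of the 8 genes were found in a RefSeq table for the GRCr8 assembly, all except Hmox1, as 250 bases before to 50 bases after a start base given by the table. For Nqo1, Gclm, Cat and Sod2 this base is the 5′ end of the gene as annotated in RefSeq, and it lies inside the annotated gene by 2.166 kb in Nfe2l2, 0.225 kb in Gclc and 0.081 kb in Sod1. The antioxidant response element core was searched as TGACNNNGC on both strands, and 12.1% of 33469 promoters of 300 bases held it. It was found in Nfe2l2, Gclm and Sod2, and not in the windows of Nqo1, Gclc, Cat and Sod1. In the same order, GC content was 68%, 72% and 72% with the core and 56.3%, 76.7%, 59.3% and 61.3% without it. The median over all promoters was 51.7%, so the share of 12.1% is not matched for base composition. A match is a description of letters and not a bound site. With the start base as position 1, the match TGACGCCGC of Nfe2l2 lay at positions 39 to 47 on the gene's strand. That of Gclm, TGACTAAGC, lay at positions -172 to -164 on the opposite strand. That of Sod2, TGACCCTGC, lay at positions -35 to -27 on the opposite strand. An AP-1 motif, TGANTCA on both strands, was found in 7.33% of the promoters and in none of the 7, so no match overlapped it. The promoters of both glutamate-cysteine ligase subunits are printed because their levels are compared, and those of Nfe2l2 and Sod2 because they hold the core. Capitals mark the core, which reads as its reverse complement where the match is on the opposite strand.
Nfe2l2 promoter, chr3:81028950-81029249, minus strand: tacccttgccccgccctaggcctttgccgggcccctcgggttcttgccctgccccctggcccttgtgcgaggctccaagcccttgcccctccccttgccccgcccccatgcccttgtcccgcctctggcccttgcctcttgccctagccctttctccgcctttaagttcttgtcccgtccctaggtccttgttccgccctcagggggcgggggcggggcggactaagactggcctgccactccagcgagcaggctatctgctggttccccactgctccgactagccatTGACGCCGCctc
Gclm promoter, chr2:213031885-213032184, plus strand: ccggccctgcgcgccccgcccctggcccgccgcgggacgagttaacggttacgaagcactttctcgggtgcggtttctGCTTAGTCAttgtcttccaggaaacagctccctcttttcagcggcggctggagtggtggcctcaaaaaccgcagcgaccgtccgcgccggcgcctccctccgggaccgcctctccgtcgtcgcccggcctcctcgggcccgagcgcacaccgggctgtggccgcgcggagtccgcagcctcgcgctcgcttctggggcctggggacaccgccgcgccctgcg
Gclc promoter, chr8:87510226-87510525, plus strand: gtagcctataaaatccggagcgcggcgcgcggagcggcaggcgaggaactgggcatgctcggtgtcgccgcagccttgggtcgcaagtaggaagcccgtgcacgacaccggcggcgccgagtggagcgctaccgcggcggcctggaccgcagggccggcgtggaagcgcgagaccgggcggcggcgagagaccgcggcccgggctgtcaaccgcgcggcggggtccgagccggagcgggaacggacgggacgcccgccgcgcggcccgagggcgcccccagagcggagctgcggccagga
Sod2 promoter, chr1:50050119-50050418, minus strand: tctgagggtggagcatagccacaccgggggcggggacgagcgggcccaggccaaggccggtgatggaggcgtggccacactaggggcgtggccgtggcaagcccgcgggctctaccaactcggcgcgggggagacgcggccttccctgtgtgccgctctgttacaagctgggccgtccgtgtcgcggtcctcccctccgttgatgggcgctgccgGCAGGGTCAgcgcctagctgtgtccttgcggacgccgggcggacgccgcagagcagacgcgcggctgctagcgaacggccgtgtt

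A sample had between 2139163 and 6248214 reads in genes (median 4602134). Gaps above 500 in the title numbers separate 3 blocks with 9.40%, 55.9% and 34.7% of the samples. The blocks serve as a check for batches only, since the labels do not define them. The median sample had 4409766 reads in the first block, 4567750 in the second and 4789736.5 in the third. Of the title numbers, 89 were used more than once. Nothing says that the samples came from separate animals, so p-values measure the spread between these samples, and those over all samples treat same-number samples as independent.

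All 8 genes were expressed in every sample, and the enzymes that act directly on reactive oxygen had the highest levels. Levels are in FPKM, reads relative to gene length and sequencing depth, scaled between samples by the authors. Scaling by length allows a comparison between genes, with a limit. Reads of the genes with the most reads per base grew less than in proportion to depth (below), so ratios between genes can shift with depth. For example, the log2 ratio of Gclm over Gclc had r = -0.26 with log2 reads, and that of Cat over Sod1 had r = 0.03. Each SD is over all samples. In bulk tissue, fewer cells of a type and less RNA per cell cannot be told apart. Cat had a mean of 142.1 FPKM ± 13.4 (SD) and ran from 111.4 through a median of 141.2 to 194.7. Sod1 had a mean of 128.4 FPKM ± 13.02 and ran from 98.97 through 127.6 to 203.9. Sod2 had a mean of 67.9 FPKM ± 8.91 and ran from 51.3 through 66.3 to 124.8. Cat and Sod1 were above 99.4% and 99.2% of all genes by mean level, and Cat was above Sod1 in 96.1% of samples. Sod1 exceeded Sod2 in all samples but 1, with a median ratio of 1.91.

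Nfe2l2 itself had a mean of 55.8 FPKM ± 3.49 (SD), from 47.5 through a median of 55.5 to 75.1. Its SD of log2(FPKM + 1) was 0.09, and 1.17% of the 16131 genes kept had a lower SD. Genes were kept where FPKM was above 1 in at least 20% of samples, and the lowest value of any of the 8 was 12.6. The regulator was thus among the genes with the least spread, while by the same SD Hmox1 and Nqo1 spread most among the 8. Hmox1 ran from 20.1 through a median of 34.3 to 58.9 FPKM, a 2.93-fold range, with a mean of 35.1 ± 7.22. Nqo1 ran from 12.6 through 26.7 to 40.4 FPKM, a 3.19-fold range, with a mean of 26.7 ± 4.84. Their SDs of log2(FPKM + 1) were 0.28 and 0.26, against a median of 0.24 over the genes kept, and the other 6 were below that median. Gclc had a wider range than either, 5.09-fold, which was 2.27-fold without its 2 highest samples. The variance of the FPKM values over the variance expected from counting reads gave another order. This ratio was 14.4 for Cat, 10.8 for Sod2, 10.5 for Hmox1, 9.92 for Gclc, 6.83 for Gclm and 6.29 for Nqo1. It was 3.86 for Sod1 and 2.27 for Nfe2l2, with a median of 3.73 over the genes kept.

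The modifier subunit of glutamate-cysteine ligase was higher than the catalytic subunit in all samples but 2. Gclm had a mean of 44.6 FPKM ± 6.77 (SD) and ran from 31.2 through a median of 44.1 to 72.7. Gclc had a mean of 19.2 FPKM ± 3.73 and ran from 12.97 through 18.7 to 66.03, and without its 2 highest samples the SD was 2.303. Their ratio had a median of 2.37, with 1.69 at the 5th and 3.13 at the 95th percentile. In the order of mean levels, each gene was above the next in most samples, and the closest neighbours were Gclm over Hmox1 in 84.8% of samples and Hmox1 over Nqo1 in 84.6%. The mean difference of Gclm and Hmox1, 9.53 FPKM ± 10.2 (SD), was smaller than its SD over samples, and that of Hmox1 and Nqo1, 8.42 ± 8.35, was about the size of its SD.

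**Figure D1:**
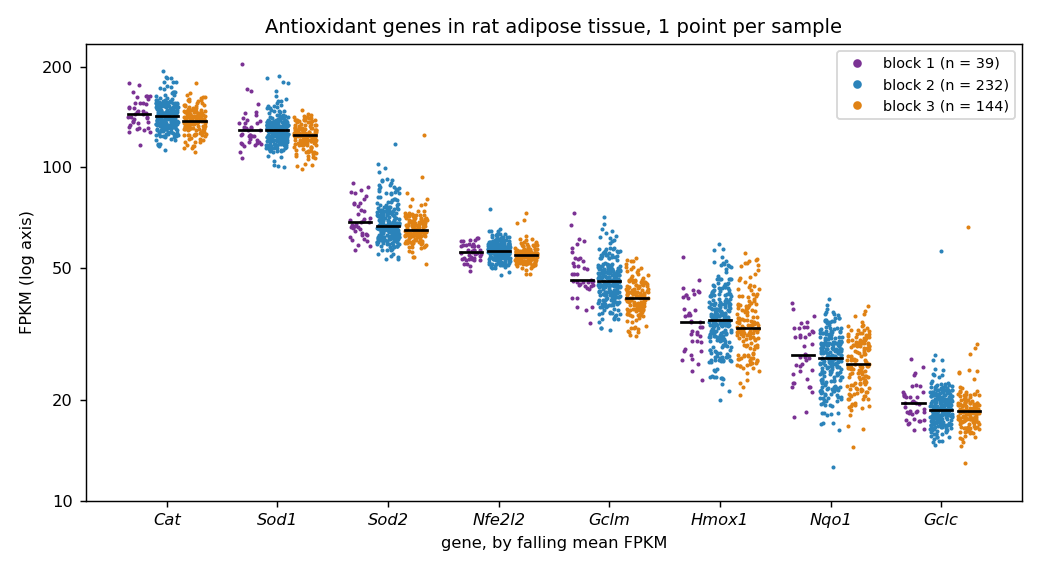
Level of each gene in FPKM (log axis) in all samples, 1 point per sample, coloured by block of title numbers, with black lines at block medians. Cat and Sod1 lie between 98.97 and 203.9 FPKM, Nfe2l2 has the narrowest band, and 2 points of Gclc, at 56.1 and 66.03, stand far above its other samples.

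Both samples in which Gclc exceeded Gclm stood apart from the others in several of the genes. They carry title number 62335 with suffix 3, in block 2, and 64199 with suffix 4, in block 3. Gclc was 56.1 and 66.03 FPKM in them, 3.003 and 3.54 times the median of the others, whose highest value was 29.5. Sod2 was 117.2 and 124.8 FPKM, against 102.4 in the highest other sample. Nfe2l2 was 75.1 and 73.1 FPKM, against 69.4 in the highest other sample. The regulator, the catalytic subunit and the mitochondrial dismutase were thus each at their 2 highest values in the same samples. The remaining genes were ordinary or low there. Nqo1, at 19.6 and 18.9 FPKM, was above 6.51% and 4.1% of samples, and Cat above 6.02% and 4.82%. Gclm was above 57.1% and 4.1% of samples, Hmox1 above 7.95% and 26.3%, and Sod1 above 55.4% and 38.6%.

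Samples with the same title numbers did not share these values. The sample with number 62335 and suffix 4 had a Gclc of 21.4 FPKM and a Nfe2l2 of 51.3, and the sample with number 64199 and suffix 5 had 20.9 and 53.9. Reads in the 2 outlying samples, 4869191 and 4927703, were above the median. They also held the 2 highest values of 628 of the 16131 genes kept, or 3.89%, and the 2 lowest values of 1.85% of the genes, so they stood apart in many genes beyond these. They were singled out after their values were seen, which chose Gclc, so no test is given. Where a value was recomputed without them and this ended or added a call or moved it by over 1.5 times, the value without them stands beside it. Correlations within blocks, within title numbers or with a covariate were not recomputed without them.

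**Figure D2:**
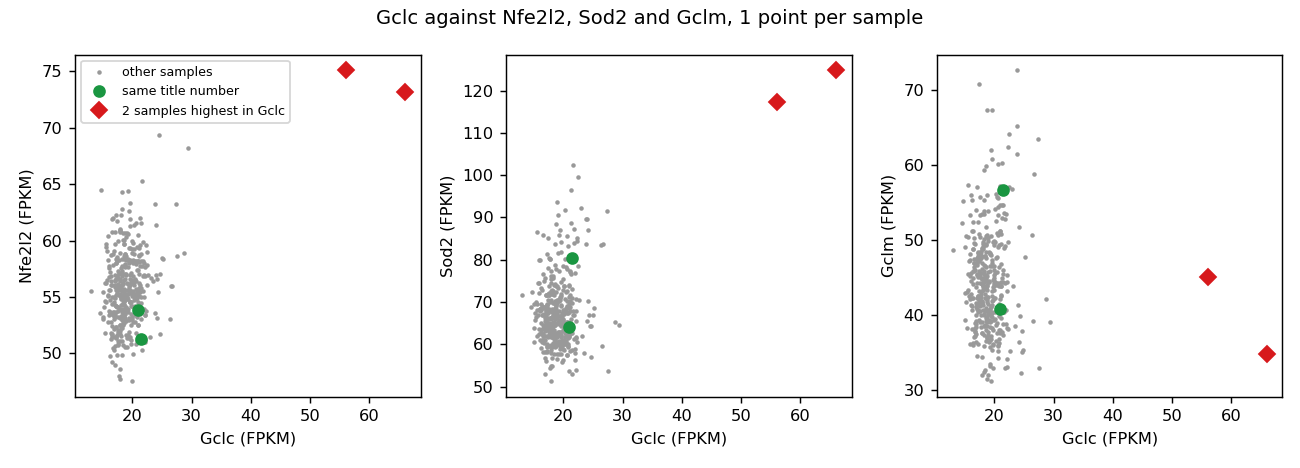
Gclc in FPKM against Nfe2l2, Sod2 and Gclm in FPKM, 1 point per sample in all samples. The 2 samples highest in Gclc (red diamonds) are also the highest in Nfe2l2 and Sod2, whereas their Gclm of 45.05 and 34.7 lies within the other samples, and samples with the same title numbers (green) lie among the rest.

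Levels of the peroxide- and superoxide-removing enzymes moved with sequencing depth, although the values were scaled between samples. In limma's test on log2(FPKM + 1) with log2 reads as the regressor, 6 of 8 genes passed an adjusted p of 0.05 (Benjamini-Hochberg over 16131 genes), against 70% of all genes. Of these, 5 were lower in deeper samples, against 28.3% of all genes. Cat changed by -0.59 log2 units per doubling of reads (SE 0.02, adjusted p = 1.22e-109) and Sod1 by -0.60 (SE 0.02, adjusted p = 7.96e-101). Pearson's r with log2 reads was -0.84 for Cat, -0.82 for Sod1, -0.55 for Sod2, -0.41 for Gclm and -0.32 for Nfe2l2. Within blocks 1, 2 and 3, r was -0.83, -0.82 and -0.86 for Cat and -0.89, -0.81 and -0.78 for Sod1. Nqo1 was higher in deeper samples, as were 41.7% of all genes, with r = 0.18 and an adjusted p of 0.00039. Hmox1 (r = 0.03) and Gclc (r = -0.05, and -0.08 without the 2 samples highest in Gclc) did not pass. In the deepest 25% of samples the median of Cat was 129.4 FPKM, against 155.4 in the shallowest 25%, and that of Sod1 was 117.8 against 138.2. The median of Cat was thereby lower by 16.8% and that of Sod1 by 14.7%, while their ranges overlapped. Quantile normalization turned the sign for Cat, Sod1 and Nfe2l2, to log2 slopes of 0.09, 0.03 and 0.09.

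Cat and Sod1, the genes with the strongest relation to depth, also had the most reads per base of the 8. Cat had 0.648 and Sod1 0.586 reads per base of gene, and their reads grew with depth with log-log slopes of 0.46 and 0.45, where proportional growth gives 1. For Sod2, at 0.310 reads per base, the slope was 0.54, and for Gclm, at 0.204, it was 0.60. Nfe2l2, at 0.257 reads per base, was denser than Gclm and had a slope of 0.87, so the slopes of the 8 did not follow the order of density. Gclc, Hmox1 and Nqo1, at 0.089 to 0.162 reads per base, had slopes of 0.97, 1.053 and 1.24. Among genes with at least 0.5 reads per base, the median slope was 0.43 and the median r with log2 reads was -0.77. Cat and Sod1 were therefore near other genes of their read density, of which 34.6% and 39.3% had a lower r. What makes reads of dense genes grow more slowly than depth was not tested.

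**Figure D3:**
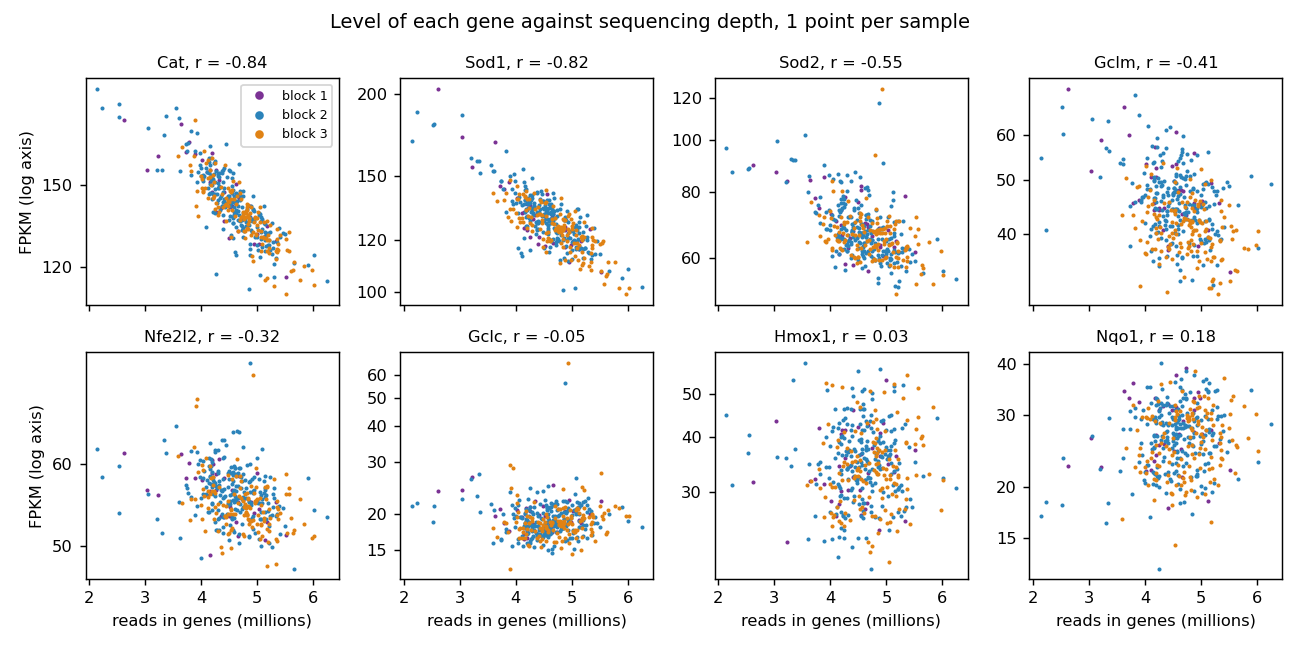
Level of each gene in FPKM (log axis) against reads counted in genes, 1 point per sample, coloured by block; r is Pearson's between log2(FPKM + 1) and log2 reads over all samples. Cat and Sod1 fall along a narrow band as reads rise (r = -0.84 and -0.82), while r is 0.03 for Hmox1 and -0.05 for Gclc.

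Without depth as a covariate, catalase and the dismutases varied together over samples, joined by Gclm, and Nqo1 and Hmox1 varied largely apart from them. Among the 28 pairs of genes, 17 passed limma's test with an adjusted p under 0.05 over all genes. The share of all genes called with each regressor was 44.5% for Hmox1, 51.2% for Gclc, 52.4% for Nfe2l2, 52.6% for Nqo1, 71.6% for Cat, 73.4% for Sod2, 73.5% for Gclm and 73.6% for Sod1. The highest r was 0.83 between Cat and Sod1 (rho = 0.80), with 0.80, 0.84 and 0.80 within blocks 1, 2 and 3. Sod1 and Sod2 followed with r = 0.69 (rho = 0.66; 0.81, 0.74 and 0.49 within blocks) and Cat and Sod2 with r = 0.59 (rho = 0.60; 0.59, 0.66 and 0.41). For each of these 3 pairs r and rho had a permutation p of 1e-05, the smallest that 100000 permutations can give. Leaving out the 2 samples farthest from the median of the second gene of a pair left r at 0.83 for Cat and Sod1. For the pairs with Sod2 these were the 2 samples highest in Gclc, and without them r was 0.74 with Sod1 and 0.67 with Cat.

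Depth moved with these correlations. With log2 reads as a covariate, r fell to 0.45 for Cat and Sod1, to 0.50 for Sod1 and Sod2 and to 0.29 for Cat and Sod2, and each still passed. Cat had a median r of 0.74 with the other genes of at least 0.5 reads per base, and 0.33 with the covariate. For Sod1 these medians were 0.76 and 0.31. The r of 0.83 between Cat and Sod1 thus stands beside a high r with other densely read genes. Under quantile normalization r was 0.22 for Cat and Sod1 and -0.02 for Cat and Sod2.

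Gclm correlated with Cat at r = 0.56 (rho = 0.50; 0.60, 0.54 and 0.51 within blocks 1, 2 and 3), with Sod1 at r = 0.53 (rho = 0.43; 0.73, 0.49 and 0.37) and with Sod2 at r = 0.52 (rho = 0.49; 0.72, 0.52 and 0.36). For all 3 pairs r and rho had a permutation p of 1e-05, and without the 2 farthest samples r was 0.55, 0.52 and 0.57. The covariate left r at 0.44, 0.36 and 0.38. With the first 10 principal components of all genes removed, r of Gclm was -0.03 with Sod1 and -0.09 with Sod2, and neither passed.

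The 2 subunits of glutamate-cysteine ligase did not show a shared variation over all samples. Gclc and Gclm had r = -0.04 (permutation p = 0.449; rho = -0.05, p = 0.346; adjusted p = 0.546 in limma's test), and -0.05 without the 2 samples farthest in Gclm and -0.0055 without the 2 highest in Gclc. Without samples under 3500000 reads r was -0.12 and passed (adjusted p = 0.0392). Within blocks 1, 2 and 3, r was 0.27, -0.01 and -0.27, and that of block 3 passed with an adjusted p of 0.0076. Between samples with the same title number r was -0.34 (adjusted p = 0.0045), which includes the 2 samples highest in Gclc and was not run without them. The sign in block 1 was the opposite of that in block 3, and the difference between blocks was not tested. Gclc was lower where Cat was higher (r = -0.18, permutation p = 0.00025; rho = -0.21, p = 5e-05; 0.00, -0.16 and -0.31 within blocks; -0.19 without the 2 samples farthest in Cat and -0.15 without the 2 highest in Gclc), and r was -0.40 with log2 reads as a covariate.

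Nfe2l2 correlated with 6 of the other 7 genes, all positively, against 24.5% of all genes that were higher with it. Its r was 0.42 with Sod2 (rho = 0.34; 0.39, 0.44 and 0.36 within blocks), 0.34 with Gclc (rho = 0.19; 0.15, 0.25 and 0.50) and 0.29 with Gclm (rho = 0.32; 0.42, 0.28 and 0.07). It was 0.32 with Cat (rho = 0.33; 0.58, 0.28 and 0.23 within blocks), 0.30 with Sod1 (rho = 0.30; 0.50, 0.25 and 0.24) and 0.21 with Hmox1 (rho = 0.21; 0.16, 0.24 and 0.13). The permutation p of r was 1e-05 for these pairs except Hmox1, at 3e-05, and that of rho was 1e-05 except Gclc, at 0.0002, and Hmox1, at 2e-05. Without the 2 samples farthest in the other gene, r was 0.27 with Gclm, 0.32 with Cat, 0.29 with Sod1 and 0.19 with Hmox1. For Gclc and Sod2 the farthest samples were again the 2 highest in Gclc. Without them, r of Nfe2l2 was 0.20 with Gclc and 0.35 with Sod2, and r of Gclc and Sod2 went from 0.29 (rho = 0.06, p = 0.186) to 0.12. Given log2 reads as a covariate, Nfe2l2 no longer passed with Cat (r = 0.09, adjusted p = 0.133) or Sod1 (r = 0.07, adjusted p = 0.297). Within title numbers its r turned to -0.03 with Hmox1 (adjusted p = 0.899) and -0.06 with Gclm (adjusted p = 0.782). That setting held the 2 samples highest in Gclc and was not run without them. Their Nfe2l2 was 75.1 and 73.1 FPKM, against 51.3 and 53.9 in the samples of the same numbers. Under quantile normalization r of Nfe2l2 was -0.02 with Gclm (adjusted p = 0.802) and 0.04 with Sod1 (adjusted p = 0.522). The positive sign with Hmox1 and Gclm thus did not hold in every setting. Nqo1, a classical target, did not pass with Nfe2l2 (r = 0.06, permutation p = 0.203; rho = 0.07, p = 0.133; 0.31, 0.12 and -0.13 within blocks; 0.04 without the 2 samples farthest in Nqo1 and 0.11, adjusted p = 0.0525, without the 2 highest in Gclc).

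Nqo1 passed with Gclm among the 7 other genes (r = 0.13, permutation p = 0.00613; rho = 0.11, p = 0.0207; adjusted p = 0.014; 0.17, 0.04 and 0.20 within blocks; 0.14 without the 2 samples farthest in Gclm). Adding log2 reads as a covariate, r of Nqo1 was 0.23 with Gclm, 0.24 with Sod1 and 0.17 with Cat, all past the threshold. Without the covariate r was -0.01 with Sod1 and -0.06 with Cat. Hmox1 correlated with Gclc at r = 0.20 (permutation p = 4e-05; rho = 0.28, p = 1e-05; 0.11, 0.24 and 0.18 within blocks; 0.30 without the 2 samples highest in Gclc). It was lower where Cat was higher, with r = -0.20 (permutation p = 8e-05; rho = -0.22, p = 2e-05; -0.30, -0.17 and -0.27 within blocks; -0.22 without the 2 samples farthest in Cat) and -0.32 with log2 reads as a covariate. With 10 principal components removed, Hmox1 passed with neither Gclc (r = 0.08, adjusted p = 0.324) nor Cat (r = -0.01, adjusted p = 0.962).

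**Figure D4:**
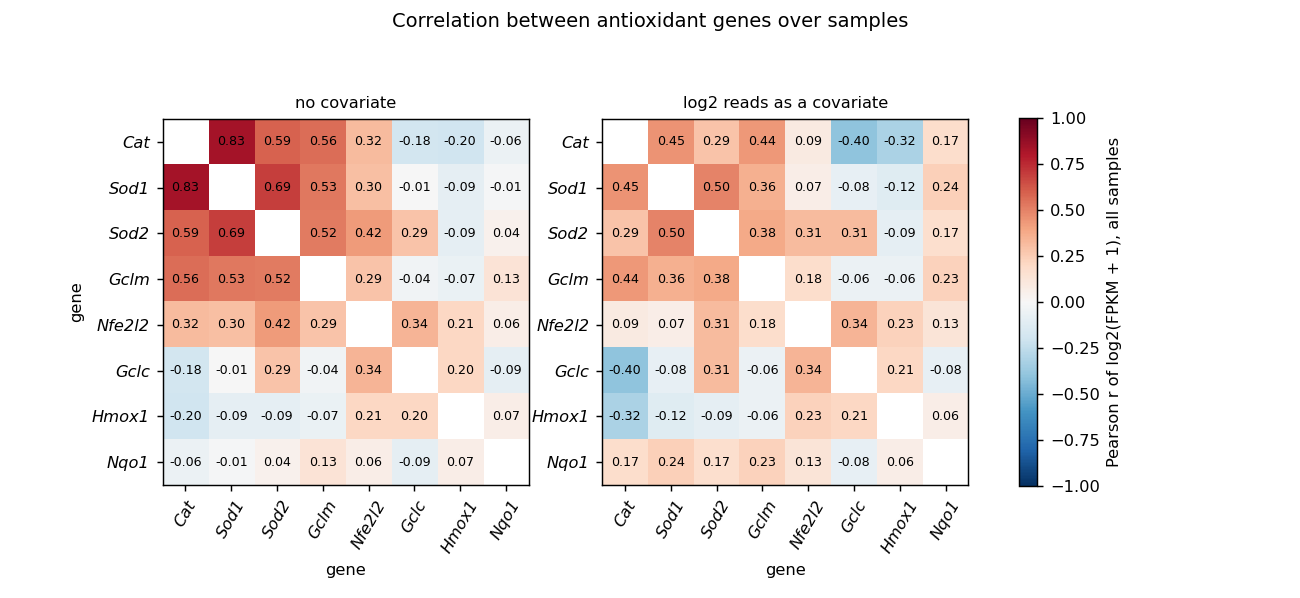
Pearson's r of log2(FPKM + 1) between the genes over all samples, without a covariate (left) and as a partial correlation with log2 reads as a covariate (right). Cat, Sod1, Sod2 and Gclm form a block of positive values that is paler with the covariate (Cat and Sod1 0.83 and 0.45), and Gclc and Gclm are at -0.04 and -0.06.

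Over all genes, an r above 0.5 was found for 1 gene with Nfe2l2, 18 with Gclc, 95 with Nqo1 and 0.775% of genes with Hmox1. For Gclm, Cat, Sod1 and Sod2 it was found for 874, 1111, 1350 and 1090 genes. The genes most alike to Hmox1 and Nqo1 were ENSRNOG00000016826 (r = 0.69 with Hmox1) and ENSRNOG00000018122 (r = 0.71 with Nqo1). After the covariate was added these values were 0.69 and 0.76. For Cat the highest r was 0.93 and became 0.72 with the covariate.

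Gclm fell most along the title numbers. Title numbers were ranked and scaled from 0 at the lowest to 1 at the highest, and 6 of 8 genes passed limma's test, all lower at higher numbers, against 61.8% of all genes called and 30.5% called lower. Gclm fell by 0.32 on the log2(FPKM + 1) scale over the whole range (SE 0.03, adjusted p = 1.73e-20). Block medians were 45.95, 45.6 and 40.7 FPKM, and the ranges of the blocks overlapped. Sod2 fell by 0.15 (SE 0.03, adjusted p = 2.28e-07), Sod1 by 0.12 and Cat by 0.11 (both SE 0.02), Gclc by 0.11 (SE 0.03) and Nfe2l2 by 0.07 (SE 0.01). Hmox1 (-0.08, SE 0.05, adjusted p = 0.158) and Nqo1 (-0.03, SE 0.04, adjusted p = 0.621) did not pass. Median reads were higher in later blocks, and with log2 reads as a covariate Cat (-0.0017, adjusted p = 0.923) and Sod1 (-0.01, adjusted p = 0.521) no longer passed, while Gclm still fell by 0.26. Of the 8 genes 4 passed with the covariate, against 51.8% of all genes. Under quantile normalization 3 passed (Gclm, Gclc and Sod2), against 60.3% of all genes.

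Slopes within blocks are also per whole range of title numbers. Within block 2, 7 of the genes passed the trend, against 56.6% of all genes, with Gclm at -0.39, Sod2 at -0.37 and Gclc at -0.34, and Nqo1 rose by 0.31 (adjusted p = 0.00291). Shallow samples stood at the start of this block. Numbers 60213 and 60214 with suffix 3 and 60444 with suffix 5 had 2235919, 2523551 and 2139163 reads, against a block median of 4567750. Within block 2, r with log2 reads was -0.35 for Gclm, -0.60 for Sod2, -0.06 for Gclc and 0.26 for Nqo1. The trend within blocks had no depth covariate, so the part of depth in these trends was not tested. Within block 3 none of the 8 passed, against 6.53% of all genes, and Gclm was at 0.22 (adjusted p = 0.354). Within block 1, with 39 samples, none of the 8 and none of the 16131 genes passed limma's test, and 1520 of the genes had an unadjusted p under 0.05. Between the 3 blocks, 5 of 8 genes differed by limma's F test, against 53% of all genes, namely Gclm (adjusted p = 2.58e-14), Sod1, Nfe2l2, Cat and Sod2. With log2 reads as a covariate, 3 passed (Gclm, Nfe2l2 and Nqo1), against 41.7% of all genes, and under quantile normalization 2 passed (Gclm and Sod1), against 51.9%. The slope itself differed between block 3 and block 2 in 3 of 8 genes, against 25.7% of all genes, by 0.61 in Gclm, 0.50 in Gclc and 0.45 in Sod2 on the log2 scale per whole range of title numbers. Without the 2 samples highest in Gclc, the difference no longer passed in Gclc (0.34, adjusted p = 0.0735 by limma) or Sod2 (0.36, adjusted p = 0.0513 by limma), which left 1 of the 8, against 25.9% of all genes. What the title number marks was not tested.

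Levels differed between title numbers in 7 of 8 genes by limma's F test over the samples that share a number, against 57.5% of all genes. Resemblance measures how far same-number samples deviate together from a gene's mean, and is 1 where they match fully. It was highest for Gclm, at 0.44 (adjusted p = 5.92e-06), above 89.1% of the genes kept. Nqo1 followed with 0.29 and Sod2 with 0.26, and Sod1, Cat, Hmox1 and Gclc were at 0.22, 0.22, 0.21 and 0.19. Nfe2l2 was lowest at 0.15 and did not pass (adjusted p = 0.146). Without the 2 samples highest in Gclc it was 0.29 and passed (adjusted p = 0.00964), so all 8 passed then, against 59.2% of all genes. The median absolute log2 difference was 0.138 in same-number pairs and 0.194 in all pairs for Gclm. It was 0.136 and 0.142 for Sod2 and 0.1167 and 0.1172 for Sod1, so in these the typical pair was hardly closer. The median of the 8 genes, 0.22, was close to the median of 0.23 over all genes kept. With a spline of the title number and log2 reads removed, Gclm was at 0.28 and Cat at 0.10, and 4 of the genes passed, namely Gclm, Hmox1, Nqo1 and Sod2, against 31.6% of all genes.

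**Figure D5:**
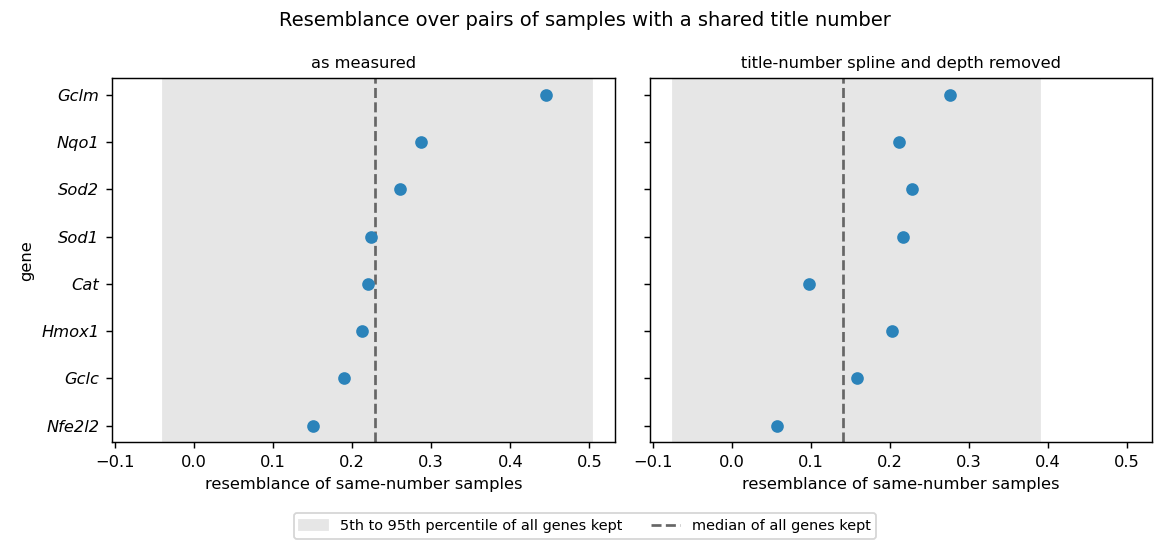
Resemblance of samples with a shared title number for each gene, as measured (left) and with a spline of the title number and log2 reads removed (right); the grey band and the dashed line are the 5th to 95th percentile and the median of 16131 genes. Gclm is highest in both (0.44 and 0.28), Nfe2l2 lowest (0.15 and 0.06), and all 8 genes lie inside the band.

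Separate modes were called in 1 of the 8 genes. A gene was called bimodal where 2 normal components lowered the Bayesian information criterion by more than 10, lay more than 3 SDs apart and left at least 5% of samples in the smaller, which 11.6% of all genes kept met. Sod2 met it, with components 3.19 SDs apart and 9.69% of samples in the smaller. It did not with a separation above 4 SDs or with 10 principal components removed. Gclc had components 10.3 SDs apart, with the 2 outlying samples, 0.482% of all, in the smaller. Sod1 (3.86 SDs, 2.57%) and Nfe2l2 (4.22 SDs, 1.12%) likewise had a small upper component below the 5% limit. The 2 highest samples of Sod1 were shallow, at 2617924 and 2235919 reads. Those of Sod2, at 4927703 and 4869191 reads, were the 2 outlying samples and were not shallow. Without these 2 samples Sod2 was still called bimodal. The next 3 highest samples of Sod2, at 102.4, 99.6 and 96.6 FPKM, had 3553426, 3045409 and 2139163 reads, below the median of 4602134. Another high sample, number 62921 with suffix 4, had a Sod2 of 90.7 FPKM at 4930289 reads. Over all samples both genes were higher at lower depth (r with log2 reads -0.82 for Sod1 and -0.55 for Sod2). No mode fit had log2 reads as a covariate, so the part of depth in these components was not tested.

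No difference was detectable between the title suffixes 4 and 3, and other suffixes were not tested. Between these, 0 of the 16131 genes passed limma's test at an adjusted p of 0.05, against 360 with an unadjusted p under 0.05. Of the 8 genes, Sod1 had the smallest p, with a difference of -0.03 (SE 0.01, unadjusted p = 0.04, adjusted p = 0.9999). Nfe2l2 differed by 0.00 with an SE of 0.01.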

How the data were processed

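RNA of 415 adipose samples (1 group) was extracted with Trizol and sequenced as single-end reads of 75 bp, per the labels' protocols. The submitters' processing notes name STAR, Picard, featureCounts and DESeq2, without versions or roles, and the build and annotation are not given in the sources used here. The deposited table holds FPKM values made by the authors. Each value equals reads over an integer length and a median-of-ratios size factor, and reads were recovered for all 18358 genes (tolerance 0.001). Columns matching no sample numbered 0.

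Tests were limma 3.58.1 (lmFit, eBayes with trend; R 4.3.3) on log2(FPKM + 1) of 16131 genes with FPKM above 1 in at least 20% of samples, with Benjamini-Hochberg adjustment over all of them. Fold changes on this scale understate changes of low genes. The steps were tested on simulated data. Correlations used Python 3.11.15, scipy 1.17.1 and 100000 permutations, two-sided. Blocks 1, 2 and 3 hold 39, 232 and 144 samples, same-number samples form 105 pairs, and suffixes 3 and 4 stand on 175 and 178 samples. Genes named are the 8 members and the genes most alike to them. Members and lists were chosen with earlier results of these data known. Lists of other pathway genes and of cell type markers were not analysed here, because identifiers were not paired with symbols. Alternatives are given at the end. Those with the 2 samples highest in Gclc left out, samples under 3500000 reads left out, plain totals for depth and co-variation, and log2 reads as a covariate for slopes and same-number tests were chosen after seeing the data.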

Additional observations from a re-analysis of the deposited data

Results flagged for a closer look

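The slope along the title numbers differed between block 3 and block 2 in 3 of the 8 genes by limma's interaction test, against 25.7% of all genes. The difference, block 3 minus block 2 over the scaled range, was 0.614 for Gclm (SE 0.172, adjusted p = 0.00355), 0.503 for Gclc (SE 0.187, adjusted p = 0.0334) and 0.446 for Sod2 (SE 0.157, adjusted p = 0.0233). In block 2 the slopes of all 3 were negative, at -0.39 for Gclm, -0.34 for Gclc and -0.37 for Sod2, and in block 3 they were 0.22, 0.16 and 0.07 and none passed. Without the 2 samples highest in Gclc, Gclm kept the difference (0.63, adjusted p = 0.00257), and Gclc (0.34, adjusted p = 0.0735) and Sod2 (0.36, adjusted p = 0.0513) did not. With log2 reads as a covariate Gclc and Gclm passed, Sod2 did not (adjusted p = 0.109), and Sod1 did.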

How the results depend on the processing

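Of 667 single values under alternatives, 549 kept their direction and side of the threshold, 59 lost the threshold, 11 gained it, 9 with no test moved and 39 changed sign. The pseudocount of 0.1, no filter and the stricter filter changed no count of genes called by more than 1.5 times. These settings could hardly do so and add to the values that kept their side. The filters left the values of the 8 genes as they were and changed only the genes fitted beside them. Either pseudocount is small beside the lowest value of the 8, 12.6 FPKM. Under quantile normalization 3 genes passed the trend (60.3% of all genes) and 2 the block test (51.9%). Depth slopes turned to 0.0903 for Nfe2l2, 0.086 for Cat and 0.0285 for Sod1, and r to -0.0192 for Nfe2l2 and Gclm, 0.0144 for Nqo1 and Cat, 0.0876 for Nqo1 and Sod1 and -0.0249 for Cat and Sod2. With log2 reads as a covariate 3 genes passed the block test (41.7%). Slope differences were then -0.0729 for Cat and -0.199 for Sod1, and r was 0.174 for Nqo1 and Cat and 0.24 for Nqo1 and Sod1. Within block 1, 0 genes passed the trend and 8 of 28 pairs passed. Trends there were 0.000486 for Nfe2l2, 1.69 for Hmox1 and 0.462 for Nqo1, and r was 0.0511 for Nqo1 and Cat, 0.091 for Nqo1 and Sod1, 0.272 for Gclc and Gclm and 0.00201 for Gclc and Cat. Within block 2, the trend of Nqo1 was 0.313 and the depth slope of Hmox1 was -0.0245. Within block 3, 0 genes passed the trend, with 0.0618 for Nfe2l2, 0.164 for Gclc, 0.223 for Gclm and 0.0726 for Sod2. There the depth slope of Gclc was 0.133, and r was -0.131 for Nfe2l2 and Nqo1 and 0.0346 for Nqo1 and Sod1. With 1 sample per title number the trend of Nqo1 was 0.0143. By Spearman ranks Nqo1 and Sod1 were at 0.029. The depth slope of Gclc was 0.0422 under plain totals and 0.145 without samples under 3500000 reads, where Nqo1 and Cat were at r = 0.0169 and Nqo1 and Sod1 at 0.103. With 10 principal components removed r was -0.027 for Gclm and Sod1 and -0.0928 for Gclm and Sod2, and 0 genes were bimodal, as with a separation above 4 SDs. Within title numbers, with the 2 samples highest in Gclc kept, r was -0.0301 for Nfe2l2 and Hmox1, -0.0601 for Nfe2l2 and Gclm, 0.203 for Nqo1 and Cat and 0.194 for Nqo1 and Sod1. The same-number test passed 3 genes with the spline removed and 4 with the spline and log2 reads removed. Without the 2 samples highest in Gclc, 1 gene passed the test of slopes. What causes the differences between settings was not tested.

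The planned count model on recovered reads was not run, since the deposited values are FPKM. The voom alternative on recovered reads passed the same number of genes as the trend test, 6. The labels give 1 group, so no groups could be paired. With the title number as a block, suffix 4 against suffix 3 gave 0 of the 8 genes over 56 numbers that hold both. Of the 8 genes Nqo1 had the fewest reads in a sample, 55 in its lowest, which bears on counting error only. Levels also moved with depth, most in Cat and Sod1 (r with log2 reads -0.84 and -0.82).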
